A study of Mus musculus with 18 samples.

Results

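The comparison set cells harvested with a cold-active protease against cells harvested after brief contact with trypsin. Its members were the 6 libraries whose labels name these treatments, 3 of each, out of 18 in the series, and every gene in the count table was eligible. The cells were C2C12, an established mouse myoblast line that can be driven to form muscle fibres in culture, grown in 20% fetal bovine serum. In the cold-active protease group, PBS-washed cells received 200 µL of the enzyme and were shaken for 5 min at 4 °C. In the low trypsin group, PBS-washed cells received 200 µL of 0.25% trypsin, which was taken off at once, and then stood for 3 min at 37 °C. Control cells, used here only for reference, were lysed and scraped in the plate. Enzyme, temperature, time and shaking all differed between the 2 treated groups, so their parts in any difference cannot be told apart. RNA was measured by BRB-seq, a bulk method that barcodes the cDNA of each sample and reads mainly the ends of mRNAs near the poly(A) tail. Replicates 1 to 3 of a group are the libraries labelled lot 1 to lot 3. Nothing in the labels says that lots were separate cultures, so the p-values speak only to the scatter among the libraries, and that scatter may be technical.

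Enzymatic detachment cuts the proteins that hold an adherent cell to its matrix and to its neighbours. Adherent cells read matrix contact and tension through integrins, the actin cytoskeleton, and the transcriptional regulators YAP/TEAD and Srf. Trypsin can also cut and activate receptors of the thrombin receptor family, and growth factor and receptor signals induce immediate early genes within minutes. Enzymes that work in the cold are used in harvesting because transcription and mRNA turnover slow down at low temperature.

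Total counts were 1889521 to 2158249 per low trypsin library and 1775288 to 2480690 per cold-active protease library, and edgeR's common biological coefficient of variation over all groups was 6.08%. No 2 libraries of a treated group were alike within sampling noise (chi-square per degree of freedom 1.64 to 2.25). The first principal component of the 6 libraries held 35.1% of the variance and separated the groups. The second held 18.2%, and on it cold-active protease replicate 3 stood apart from the other two of its group, at 19.8 against -14.8 and -9.08. The 7 myoblast markers summed to 1361 to 1408 CPM (counts scaled to the library total) in low trypsin and 1444 to 1550 CPM in cold-active protease libraries. Des gave most of each sum (785 to 820 and 865 to 957 CPM) and was the only one of the 7 called different. Myod1 and Itga7 were also higher in cold-active protease libraries without overlap. Myf5 (84.1 to 95.9 against 74.9 to 82.6 CPM) and Chrna1 (148 to 158 against 134 to 141 CPM) were lower there without overlap. Over all genes tested, 8.18% were higher and 9.54% lower in cold-active protease libraries without overlap. The defining endothelial genes Kdr and Tek and the leukocyte gene Ptprc were at 0 in all 6 libraries, and the endothelial, adipocyte, leukocyte and epithelial lists each summed to at most 4.60 CPM in any of them. Among the other markers, Tubb3 reached 28.6 to 39.2 CPM and Cd34 18.1 to 38.5 CPM in the 6 libraries, and neither was called different. In bulk RNA, fewer cells of a type and less RNA per cell cannot be told apart.

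Of 10075 genes tested, 333 differed between the groups (edgeR quasi-likelihood test, Benjamini-Hochberg adjusted p under 0.05), which is 3.31% of those tested. Most of the called genes, 259 (2.57% of those tested), were lower after the cold-active protease, and 74 (0.734%) were higher. The lower genes also differed by more: their median difference was 0.79 on the log2 scale, against 0.28 for the higher genes, and 88 lower genes but 5 higher ones differed by more than 2-fold. Of the 88, 35 were protein-coding and 47 were pseudogenes. Among protein-coding genes alone the median differences were 0.61 for the lower and 0.27 for the higher genes. The called sets also differed in level. The median CPM over both groups was 63.2 for the lower and 289 for the higher coding genes, against 38.4 for all tested coding genes. Whether level accounts for the unequal sizes was not tested. The median over all tested genes was 0.01. The libraries of the groups did not overlap for 251 of the 259 and for 72 of the 74. Over all genes tested, 9.54% were lower without overlap and 8.18% higher without overlap. The count of higher genes fell to between 34 and 48 when any 1 of the libraries other than low trypsin replicate 3 was left out, and to 39 with DESeq2. The count of lower genes was 170 without cold-active protease replicate 2 and 178 with DESeq2.

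**Figure D1:**
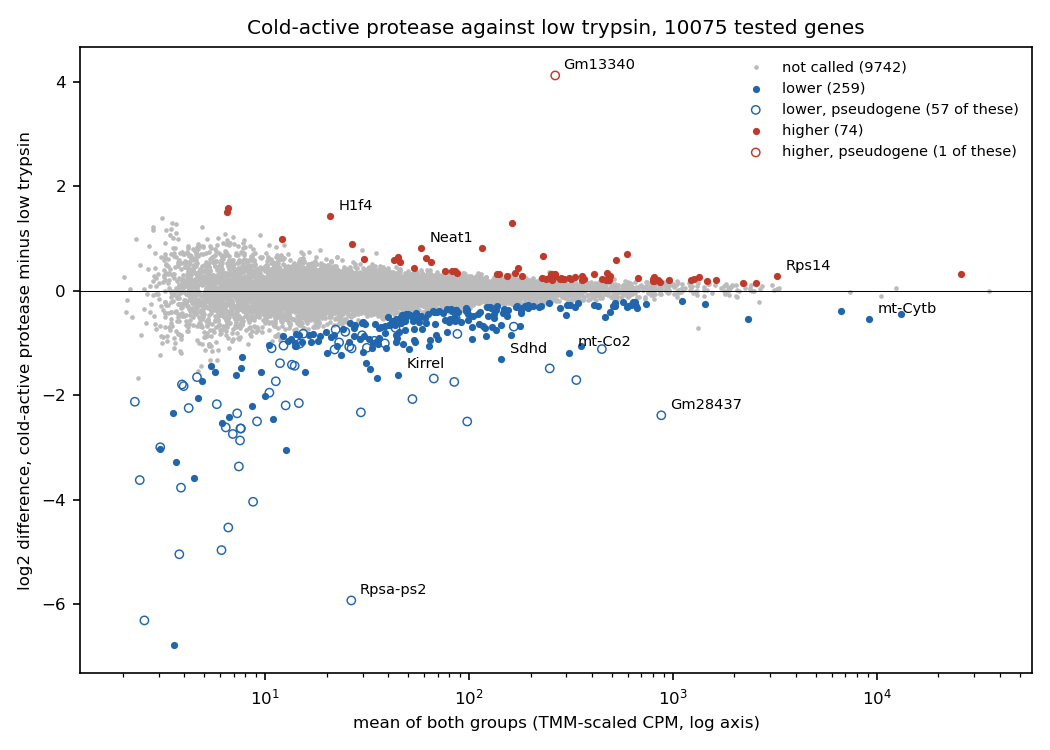
Log2 difference, cold-active protease minus low trypsin, against the mean level of both groups in TMM-scaled CPM on a log axis, for 10075 genes. Blue and red mark the 259 lower and 74 higher genes, and open circles mark the 57 and 1 pseudogenes among them. The lower genes reach far larger differences than the higher ones.

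The matricellular genes Ccn1 and Ccn2 (also known as Cyr61 and Ctgf), which are induced by YAP/TEAD and by Srf, were among the clearest differences. Ccn1 stood at 459, 485 and 488 CPM in the 3 low trypsin libraries and at 209.6, 238 and 236 CPM in the cold-active protease libraries. The ranges were far apart, and the scraped control libraries, at 232, 241 and 226 CPM, overlapped the cold-active protease libraries. Ccn1 fell by 1.07 ± 0.06 (SE) on the log2 scale, with an edgeR adjusted p of 7.84e-19. Ccn2 was measured at 149, 181 and 177 CPM in low trypsin and 96.6, 93.1 and 111 CPM in cold-active protease, a log2 difference of -0.76 ± 0.10 (edgeR adjusted p = 1.37e-07). Ankrd1, a YAP/TEAD target that encodes a cardiac and muscle ankyrin repeat protein, fell less, from 517, 557 and 605 CPM to 415, 415 and 445 CPM (log2 -0.40 ± 0.06, adjusted p = 2.64e-06). F3, which encodes tissue factor, the starter of blood clotting, had 52.8, 52.5 and 64.5 CPM in low trypsin and 41.1, 27.6 and 25.3 CPM in cold-active protease (log2 -0.85 ± 0.15, adjusted p = 7.26e-05). For each of these genes the lowest low trypsin library lay above the highest cold-active protease library. Of 22 tested genes on the YAP/TEAD list these 4 fell, against 2.57% of all genes tested, none rose and 18 did not pass the test, with a median log2 difference of -0.09. Lats2 (-0.38 ± 0.16), Amotl2 (-0.15 ± 0.10) and Axl (0.08 ± 0.06) were among the 18.

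Srf itself, the transcription factor that couples actin dynamics and growth factor signals to gene expression, was lower after the cold-active protease. It had 44.8, 47.7 and 50.9 CPM in low trypsin and 23.8, 22.6 and 24.1 CPM in cold-active protease libraries, with no overlap (log2 -1.03 ± 0.18, adjusted p = 8.92e-05). Tagln, which encodes the actin-binding protein transgelin, was at 54.3, 58.5 and 48.1 CPM in low trypsin and at 19.1, 12.4 and 19.5 CPM in cold-active protease. This was the largest fall on the actin and Srf target list (log2 -1.68 ± 0.19, adjusted p = 2.62e-09). Actg1, which encodes gamma-actin, fell from 150.4, 171 and 145 CPM to 91.0, 83.6 and 81.5 CPM (log2 -0.86 ± 0.10, adjusted p = 1.00e-08). Cnn3, a calponin, fell by a smaller amount at a higher level, from 742, 713 and 727 CPM to 608, 586 and 587 CPM (log2 -0.29 ± 0.05, adjusted p = 1.03e-04). Tmsb10, which encodes the actin-sequestering thymosin beta 10, rose by 0.22 ± 0.06 (adjusted p = 0.0352), and it lost the call in 5 of 6 fits that each left out 1 library. The list held 41 tested genes, of which 3 fell, 1 rose and 37 did not pass the test, and its median was 0.00. Over all genes tested 2.57% fell and 0.734% rose. Flna (0.01 ± 0.05), which encodes filamin A, and Acta2 (0.02 ± 0.04), smooth muscle actin, were among the 37. Tagln overlaps Pcsk7 on the opposite strand, and no source used here states the counting strand.

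The stretch of 250 bases before the start of a gene was available from RefSeq (GRCm38.p6) for Srf and 5 of the 7 genes that fell on the YAP/TEAD and actin lists, Ccn1, Ankrd1, F3, Actg1 and Cnn3, and not analysed here for Ccn2 and Tagln. The 4 windows that held a match to the site bound by TEAD factors or by Srf are shown 5′ to 3′ on the strand of the gene. Capitals mark the TEAD core CATTCC, or GGAATG where it lies on the other strand, in Ccn1 (chr3:145649986-145650235, minus strand) and Ankrd1 (chr19:36119845-36120094, minus strand). They mark the CArG box, the site bound by Srf, in Srf (chr17:46556163-46556412, minus strand) and Actg1 (chr11:120348496-120348745, minus strand).
Ccn1: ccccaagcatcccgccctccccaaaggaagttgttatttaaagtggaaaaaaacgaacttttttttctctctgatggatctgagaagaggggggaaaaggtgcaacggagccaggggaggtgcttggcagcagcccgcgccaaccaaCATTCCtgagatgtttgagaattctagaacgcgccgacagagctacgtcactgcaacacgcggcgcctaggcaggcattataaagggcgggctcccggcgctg
Ankrd1: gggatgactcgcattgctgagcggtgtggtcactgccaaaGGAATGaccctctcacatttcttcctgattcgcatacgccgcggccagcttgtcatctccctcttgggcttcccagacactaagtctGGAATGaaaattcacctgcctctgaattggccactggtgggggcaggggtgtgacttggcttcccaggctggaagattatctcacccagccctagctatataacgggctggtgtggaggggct
Srf: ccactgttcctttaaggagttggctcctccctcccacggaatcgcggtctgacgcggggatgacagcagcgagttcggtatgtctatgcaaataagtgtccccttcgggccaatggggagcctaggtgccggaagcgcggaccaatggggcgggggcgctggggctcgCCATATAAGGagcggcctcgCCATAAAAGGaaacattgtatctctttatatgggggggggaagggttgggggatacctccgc
Actg1: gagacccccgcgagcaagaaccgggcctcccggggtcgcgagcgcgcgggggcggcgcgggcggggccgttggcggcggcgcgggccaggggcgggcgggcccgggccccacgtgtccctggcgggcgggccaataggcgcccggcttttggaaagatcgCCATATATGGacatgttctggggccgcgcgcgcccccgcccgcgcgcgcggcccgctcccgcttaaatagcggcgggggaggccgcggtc
The TEAD core occurred in 12.6% and the CArG box in 1.47% of all 32851 windows of that length, searched on both strands. Ccn1 held 1 TEAD core and Ankrd1 held 2, Srf held 2 CArG boxes and Actg1 held 1, and neither motif was found in the windows of F3 and Cnn3. A match of letters is a description of the sequence and does not show binding.

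**Figure D2:**
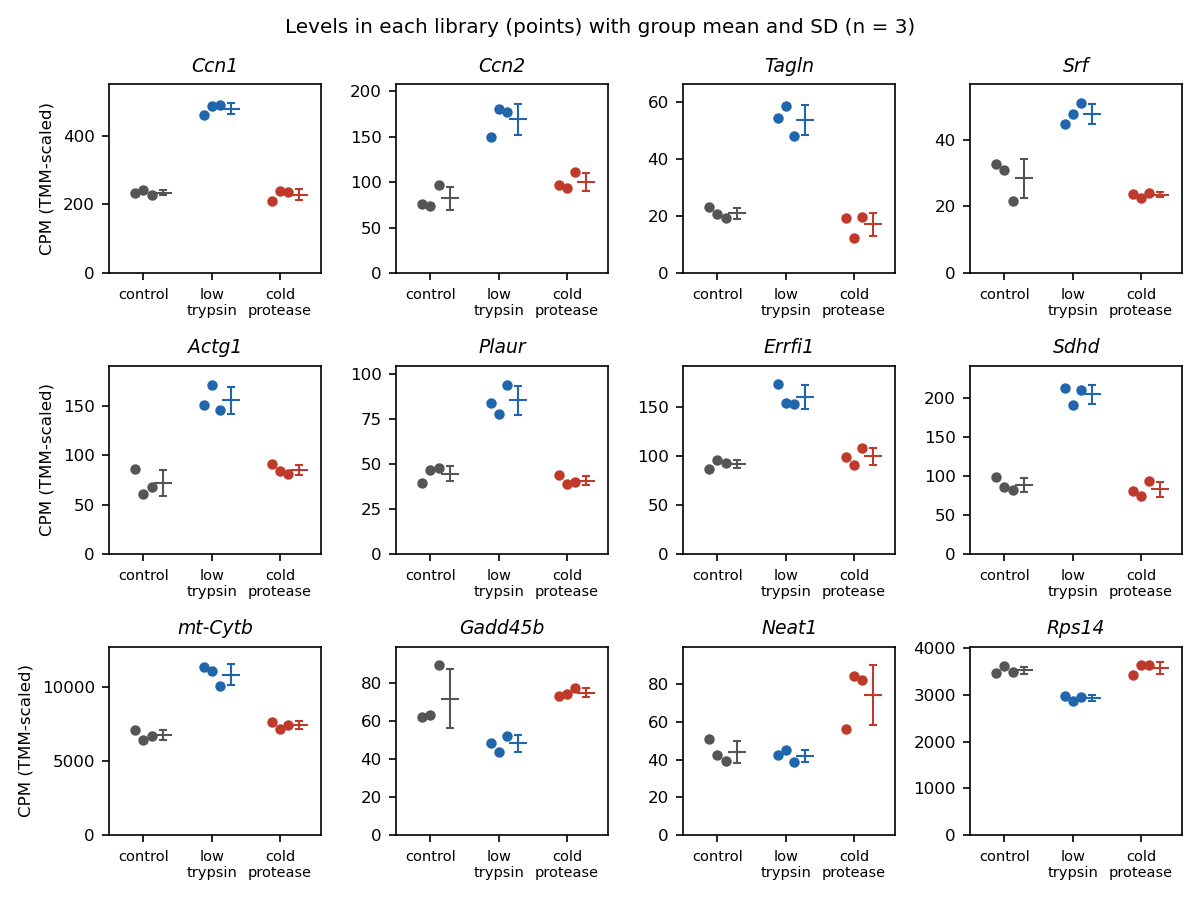
TMM-scaled CPM of 12 genes in each control, low trypsin and cold-active protease library (points), with the group mean and SD beside them (n = 3). For Ccn1, Ccn2, Tagln, Srf, Actg1, Plaur, Errfi1, Sdhd and mt-Cytb all low trypsin libraries lie above all cold-active protease libraries, and for Gadd45b, Neat1 and Rps14 all lie below.

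On the list of immediate early transcription factors, whose genes answer growth factors within minutes, the calls were all falls. Of 22 tested, Srf, Egr1 and Hes1 were lower, against 2.57% of all genes tested, none was higher and 19 did not pass the test, with a median of -0.05. Egr1 had 138, 120.2 and 124 CPM in low trypsin and 96.6, 105 and 75.2 CPM in cold-active protease (log2 -0.45 ± 0.11, adjusted p = 0.00562). Its adjusted p was 0.0988 without cold-active protease replicate 3 and 0.0696 without low trypsin replicate 1. Hes1, a target of Notch, differed by -0.41 ± 0.12 (adjusted p = 0.0353), and the call was lost without cold-active protease replicate 2 or 3 and without low trypsin replicate 1 or 3, with adjusted p-values of 0.114 to 0.176. It was the only called gene among 15 on the Notch list. Junb, an AP-1 subunit, did not pass, at 254, 256 and 249.95 CPM in low trypsin and 235, 239 and 235 CPM in cold-active protease (log2 -0.10 ± 0.08, adjusted p = 0.647). Atf3 had the largest positive value of the list at 0.90 ± 0.50 and did not pass the test (adjusted p = 0.450).

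Errfi1, a feedback inhibitor of the EGF receptor, stood at 173, 154 and 152 CPM in low trypsin and 99.0, 91.0 and 108 CPM in cold-active protease. It was the only one of 13 tested MAP kinase feedback genes to pass (log2 -0.69 ± 0.09, adjusted p = 4.36e-07), where 2.57% of all genes tested were lower. Spry4, a further inhibitor of receptor signalling, had a log2 difference of -1.13 ± 0.39 that did not pass (adjusted p = 0.115). Among genes of pericellular proteolysis, Plaur, the receptor of urokinase on the cell surface, fell from 84.2, 78.0 and 94.4 CPM to 43.9, 38.7 and 40.2 CPM (log2 -1.07 ± 0.13, adjusted p = 7.17e-08). Adam9, a membrane metalloprotease, fell by 0.69 ± 0.11 (adjusted p = 6.50e-06). These 2 falls were out of 19 tested, against 2.57% of all genes. The other 17 did not pass, among them Plau (-0.42 ± 0.15), which encodes urokinase, and the thrombin receptor F2r (-0.23 ± 0.07). Of 18 chemokine and NF-kB response genes 2 fell, against the same 2.57% of all genes tested. They were Ccl2, a chemokine that recruits monocytes, at 133, 135 and 137 CPM in low trypsin and 86.4, 83.6 and 91.8 CPM in cold-active protease (log2 -0.64 ± 0.09, adjusted p = 1.37e-06), and Ptgs2, which encodes cyclooxygenase-2 (log2 -0.67 ± 0.16, adjusted p = 0.00480). The call on Ptgs2 was lost without cold-active protease replicate 2 (adjusted p = 0.0594) and without low trypsin replicate 1 (adjusted p = 0.0533).

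The 12 largest falls among genes past the naming rule had varied roles and started from low levels in most cases. Nkain2, Lpcat4, Tnfsf9 and Usp50 had at most 17.4 CPM in any low trypsin library, and their log2 differences were -2.53 ± 0.50, -2.42 ± 0.46, -2.21 ± 0.38 and -2.02 ± 0.36. They averaged 1.91, 1.98, 2.97 and 3.80 CPM in cold-active protease libraries and 1.89, 3.60, 2.78 and 4.73 CPM in control libraries. The expression filter works by group, so genes such as these could enter the test through groups where they were high. Their rank among the falls follows in part from that filter. Kirrel, which encodes an adhesion protein of the nephrin family, had 61.8, 66.6 and 74.8 CPM in low trypsin and 21.01, 26.8 and 17.8 CPM in cold-active protease (log2 -1.61 ± 0.15, adjusted p = 1.12e-11). Crtc2, a coactivator of CREB, had 42.8, 49.8 and 50.9 CPM and 13.5, 16.1 and 21.8 CPM (log2 -1.50 ± 0.17, adjusted p = 7.93e-09). Sdhd, a membrane anchor of respiratory complex II, was the most abundant protein-coding gene of the 12, at 213, 191 and 210.2 CPM in low trypsin and 81.2, 74.5 and 93.6 CPM in cold-active protease (log2 -1.31 ± 0.11, adjusted p = 5.18e-14). Dclre1a, of DNA crosslink repair, and Ppp3cc, a catalytic subunit of calcineurin, had log2 differences of -1.62 ± 0.37 and -1.56 ± 0.25. The remaining 3 were Tagln, the mitochondrial tRNA gene mt-Tt and the ribosomal protein retrogene Rps27rt. The call on mt-Tt was lost without low trypsin replicate 1 (adjusted p = 0.0625). Usp50 lies across from Usp8 and Tnfsf9 across from Gm11110, each on the other strand.

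The 12 largest rises were smaller, and several did not keep their call in every leave-one-out fit. Gadd45b and Gadd45g, stress-inducible growth arrest genes, were both higher than in low trypsin. Relative to control they were at 0.05 ± 0.13 and 0.11 ± 0.07 in the cold-active protease, and neither was called. In low trypsin they were at -0.58 ± 0.14 and -0.33 ± 0.08 from control, and both were called lower. Gadd45b had 48.3, 43.9 and 52.3 CPM in low trypsin and 73.3, 74.1 and 77.5 CPM in cold-active protease (log2 0.63 ± 0.14, adjusted p = 0.00252). Gadd45g had 137, 151 and 154 CPM and 188, 198 and 218 CPM (log2 0.44 ± 0.08, adjusted p = 5.30e-05), and both kept their calls in all leave-one-out fits. Neat1, the long noncoding RNA that scaffolds nuclear paraspeckles, had 42.3, 44.9 and 38.8 CPM in low trypsin and 56.0, 84.4 and 82.1 CPM in cold-active protease (log2 0.82 ± 0.15, adjusted p = 1.71e-04). The lowest cold-active protease library was replicate 1, and it still lay above every low trypsin library. Neat1 was the only called one of 10 tested genes on the list of long noncoding RNAs, against 0.734% higher of all genes tested. That list does not cover every long noncoding RNA: Hoxa11os, given below, is one that was called higher and is not on it. On the same list, the nuclear RNA Malat1 had 0.36 ± 0.12 (adjusted p = 0.0720). H1f4, a linker histone, had the largest value of the 12, 12.5, 10.3 and 11.2 CPM against 16.8, 42.0 and 32.1 CPM (log2 1.42 ± 0.34, adjusted p = 0.00615). Without cold-active protease replicate 2 its adjusted p was 0.183, and the other 17 tested histone genes did not pass (1 rise in 18, against 0.734% of all genes tested). Grhpr, an enzyme of glyoxylate metabolism, rose by 0.65 ± 0.14 and Alg5, an enzyme of N-glycan assembly, rose by 0.54 ± 0.12. Mir6236 rose by 0.81 ± 0.15, a call that DESeq2 did not make (adjusted p = 0.108). Nsa2, Cdc6, Pkp4, Hoxa11os and Cant1 rose by 0.43 to 0.99, and each lost its call in 4 to 6 of the 6 leave-one-out fits.

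Ribosomal protein mRNAs were called higher more often than lower after the cold-active protease, and most did not pass the test. Of 32 small subunit genes 8 rose, against 0.734% of all genes tested, 2 fell and 22 did not pass, with a median log2 difference of 0.11. Of 46 large subunit genes 6 rose, 1 fell and 39 did not pass, with a median of 0.08. With pseudogene counts added to their best matching genes, an alternative chosen after seeing the data, the large subunit list had 4 higher and 4 lower genes and a median of 0.04, and the small subunit list 6 and 2 and a median of 0.07. Rps14 had 2979, 2861 and 2948 CPM in low trypsin and 3417, 3632 and 3645 CPM in cold-active protease (log2 0.28 ± 0.04, adjusted p = 9.39e-06). Rps15a rose by 0.34 ± 0.06, and Rpl28, Rplp1 and Rplp2, the last 2 encoding acidic stalk proteins, rose by 0.28 ± 0.06, 0.27 ± 0.06 and 0.25 ± 0.05. Rps16 was among those that did not pass (0.09 ± 0.06). The genes that fell were Rps27 (-0.33 ± 0.08), Rps28 (-0.29 ± 0.08) and Rpl39 (-0.27 ± 0.07). The call on Rpl39 was lost without cold-active protease replicate 2 or 3 and without low trypsin replicate 1 or 2, with adjusted p-values up to 0.415. Ribosomal protein genes together took 6.44% ± 0.07 (SD, n = 3) of counts in cold-active protease, 6.01% ± 0.17 in low trypsin and 6.57% ± 0.11 in control libraries. All cold-active protease libraries lay above all low trypsin libraries, and the exact two-sided permutation p was 0.1, the smallest that 3 against 3 allows. Of the small subunit genes 22 and of the large subunit genes 27 have a near-identical copy among the annotated genes, so their counts are uncertain where reads could go to a copy.

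Pseudogenes were lower after the cold-active protease far more often than genes as a whole, while the ribosomal protein genes that many of them copy were not. Of 159 tested pseudogenes, 57 (35.8%) fell and 1 rose, against 2.57% and 0.734% of all genes. The expression filter works by group, so a pseudogene could enter the test through low trypsin alone. Gm10154, for example, averaged 12.7 CPM in low trypsin, 0.484 CPM in cold-active protease and 0.314 CPM in control libraries. The shares and medians of pseudogenes given here depend in part on that filter, and how many entered this way was not counted. Pseudogenes took 0.654% ± 0.012 of counts in cold-active protease, 0.985% ± 0.018 in low trypsin and 0.595% ± 0.050 in control libraries (SD, n = 3), with an exact two-sided permutation p of 0.1 between the treated groups. Of 100 whose best match was a ribosomal protein gene, 42 were lower, and the median log2 difference over all 100 was -0.76. None of the 32 ribosomal protein genes matched by those 42 was lower. Of these genes 7 were higher, and their median was 0.11. Rpsa-ps2 was at 56.8, 40.6 and 58.9 CPM in low trypsin and at 0.934, 0.824 and 0.574 CPM in cold-active protease libraries, while Rpsa itself was at 765, 734 and 737 and 838, 808 and 833 CPM. Whether reads were shared between copies in the same way in every library was not tested. When the counts of 501 pseudogenes were added to their best matching genes, the total number of calls became 263, with 62 higher and 201 lower. Rpl23a changed sign under this alternative, from 0.43 ± 0.48 to -1.58, and Rpl10a from 0.11 ± 0.08 to -0.29.

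**Figure D3:**
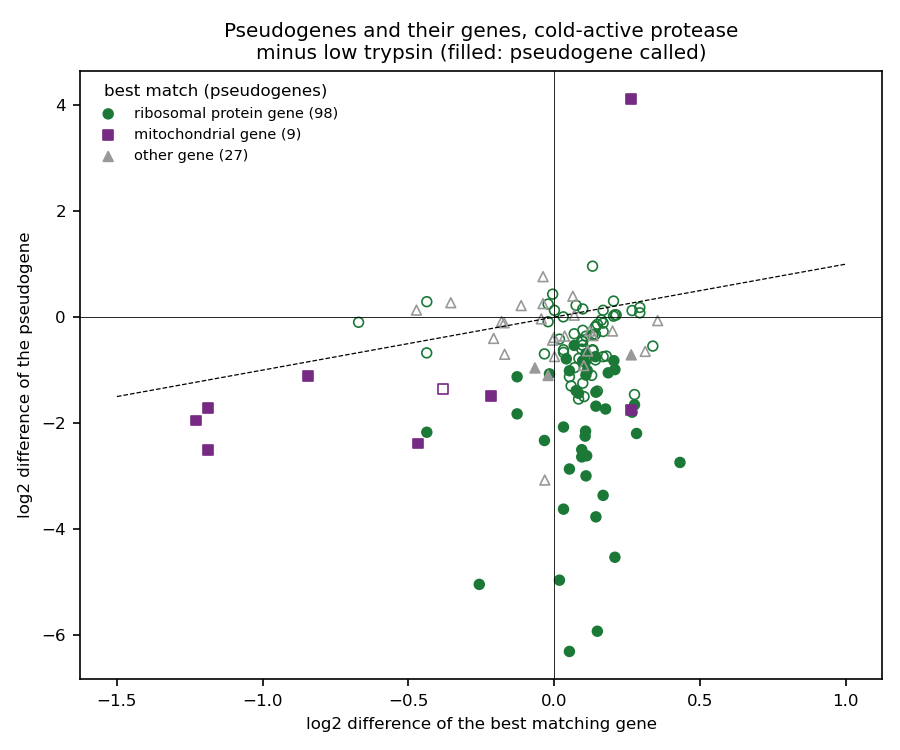
Log2 difference of each pseudogene against that of its best matching gene, both cold-active protease minus low trypsin, for pseudogenes whose gene was tested. Circles, squares and triangles stand for ribosomal protein, mitochondrial and other genes, filled symbols for called pseudogenes, and the dashed line for equal values. Most filled circles lie far below the line while their genes lie within 0.5 of 0.

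Mitochondrially encoded mRNAs were lower after the cold-active protease for 7 of 11 tested, against 2.57% of all genes tested, with a median of -0.44, while 1 rose and 3 did not pass. The abundant mt-Cytb, of respiratory complex III, was at 11375, 11120.2 and 10063 CPM in low trypsin and 7660.5, 7169.7 and 7474 CPM in cold-active protease (log2 -0.55 ± 0.04, adjusted p = 4.20e-14). The complex I genes mt-Nd1, mt-Nd4 and mt-Nd3 fell, with log2 differences of -0.44 ± 0.04, -0.38 ± 0.04 and -1.23 ± 0.21. The cytochrome oxidase genes went different ways. The mRNA mt-Co2 was at 426, 436 and 429 CPM in low trypsin and 182, 185 and 200.3 CPM in cold-active protease (log2 -1.19 ± 0.07, adjusted p = 1.13e-18), mt-Co3 fell by 0.47 ± 0.07 and mt-Co1 rose by 0.26 ± 0.06. The large mitochondrial rRNA mt-Rnr2 also rose, by 0.33 ± 0.09, and its call was lost without cold-active protease replicate 2 or 3 and without low trypsin replicate 1 or 3. Mitochondrially encoded genes as a whole took 6.28% ± 0.44 of counts in cold-active protease and 6.59% ± 0.52 in low trypsin libraries (SD, n = 3, exact two-sided permutation p = 0.6), and the ranges overlapped.

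Nuclear pseudogenes that match mitochondrial genes moved too, 7 of 9 lower and 1 higher. The exception was Gm13340 (chr2:22588103-22589647, minus strand), which matches mt-Co1 and had the largest rise of any gene. It had 15.9, 29.8 and 39.7 CPM in low trypsin and 521, 473 and 506 CPM in cold-active protease (log2 4.12 ± 0.13, adjusted p = 2.35e-30), with 16.7, 5.86 and 11.3 CPM in control libraries. Gm28437, which matches mt-Co3, was at 1463, 1591 and 1355 CPM in low trypsin and 303, 259 and 282 CPM in cold-active protease (log2 -2.39 ± 0.14). With pseudogene counts added to their genes, mt-Co1 had 0.83 and mt-Co3 had -1.77, so the size of both differences depended on where reads were placed. Of 36 nuclear genes of complex I, Ndufb8 (0.27 ± 0.07) and Ndufs7 (0.22 ± 0.06) rose and Ndufa4 (-0.34 ± 0.09) fell, and none of these calls held in every leave-one-out fit. Of 42 nuclear genes of complexes II to V, Sdhd fell, Cox7c rose (0.23 ± 0.07, adjusted p = 0.0487) and 40 did not pass, Cox8a (0.08 ± 0.08) among them. Among 73 mitochondrial ribosomal protein genes, Mrps28 had the largest difference, 80.7, 91.0 and 104 CPM in low trypsin against 50.0, 49.4 and 45.3 CPM (log2 -0.92 ± 0.13, adjusted p = 5.92e-07), Mrpl55 fell and Mrps6 rose. Cox7c, Mrpl55 and Mrps6 each lost the call in 4 of 6 leave-one-out fits, and Cox7c and Mrpl55 also with pseudogene counts added. None of 29 genes of mitochondrial import passed. Each count of calls in this paragraph stands beside the 2.57% lower and 0.734% higher of all genes tested.

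Cells in the cold-active protease group spent 5 min at 4 °C, and Rbm3, an RNA-binding protein gene induced by mild cold, was lower in them. It had 32.4, 29.8 and 43.9 CPM in low trypsin and 22.4, 16.9 and 18.9 CPM in cold-active protease (log2 -0.88 ± 0.20, adjusted p = 0.00313), and control libraries spanned 18.6 to 34.4 CPM. The call was lost without cold-active protease replicate 2 (adjusted p = 0.0535) and without low trypsin replicate 3 (adjusted p = 0.0860). Cirbp, the related cold-inducible RNA-binding protein gene, did not pass, at 47.8, 33.0 and 56.1 CPM and 48.1, 64.2 and 40.8 CPM (log2 0.17 ± 0.16, adjusted p = 0.720), and its sign changed without replicate 2 of either group. The other 19 tested genes of the list did not pass (1 call in 21, against 3.31% of all genes tested), and the temperature-sensitive kinase genes Clk1 and Clk4 had 0.21 ± 0.14 and 0.27 ± 0.16. None of 23 heat shock and cochaperone genes passed, with a median of 0.01. Hspa8, the constitutive Hsp70, was at 131, 141 and 157 CPM in low trypsin and 159, 147 and 138 CPM in cold-active protease (log2 0.05 ± 0.09), and its sign changed without replicate 1 of either group. Hsp90aa1 and Hspa1b had 0.00 ± 0.10 and -0.30 ± 0.13.

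Lists of stress and nutrient genes held between none and 2 called members each, against 3.31% of all genes tested. None of 20 ER chaperone genes and none of 21 p53 targets passed. Of 25 genes of the integrated stress response, Slc7a5, a transporter of large neutral amino acids, rose by 0.34 ± 0.08 and Ppp1r15a fell by 0.83 ± 0.25, the latter with an adjusted p of 0.0470 that no leave-one-out fit kept below the threshold. Of 14 FoxO targets, Pdk4, an inhibitor of pyruvate oxidation, fell from 57.8, 69.9 and 72.9 CPM to 44.8, 37.1 and 37.9 CPM (log2 -0.74 ± 0.13, adjusted p = 1.07e-04) and Cited2 fell by 0.23 ± 0.06. The glycolytic genes Tpi1 and Aldoa fell (log2 -0.22 ± 0.05 and -0.21 ± 0.05) and the other 15 of 17 did not pass. Srebf2, the regulator of cholesterol synthesis, rose by 0.21 ± 0.06, and 22 of 23 on that list did not pass. Neither of the lists for BMP and TGF-beta targets (16 tested) and for iron and Nrf2 redox genes (28 tested) had a called member. Of these genes only Pdk4 kept its call in all leave-one-out fits.

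None of 25 genes on the adhesion receptor list passed, with the integrin genes Itgb1 and Itga5 at 0.05 ± 0.05 and 0.19 ± 0.09. Over all genes tested 2.57% fell and 0.734% rose, the shares to set beside the counts that follow. Of 36 extracellular matrix genes, Thbs1, which encodes the matricellular protein thrombospondin-1, fell from 588, 569 and 563 CPM to 447, 439 and 512 CPM (log2 -0.30 ± 0.06, adjusted p = 3.96e-04). Col1a2, a chain of type I collagen, and Hspg2, which encodes perlecan, rose by 0.18 ± 0.05 and 0.23 ± 0.07, and both lost their calls in 5 of 6 leave-one-out fits. Of 23 microtubule and focal adhesion genes, Rhoa and Lims1 fell (log2 -0.28 ± 0.07 and -0.24 ± 0.07). The call on Rhoa was lost without replicate 3 of either group and that on Lims1 in 5 of 6 leave-one-out fits.

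Muscle differentiation genes had the highest median of the 40 lists, 0.18, with 19 of 22 values above 0. Only Des, which encodes the intermediate filament desmin, passed the test, at 799.95, 811 and 827 CPM in low trypsin and 971, 884 and 896 CPM in cold-active protease (log2 0.17 ± 0.05, adjusted p = 0.0410). It lost the call in 5 of 6 leave-one-out fits, and 1 rise in 22 stands beside 0.734% of all genes tested. Myog and Myh3 had 0.21 ± 0.20 and 0.65 ± 0.34 and did not pass. None of 18 myoblast identity factors passed, and Myod1, the master regulator of the myoblast fate, had 47.8, 55.8 and 57.0 CPM in low trypsin and 62.6, 60.9 and 65.4 CPM in cold-active protease (log2 0.23 ± 0.12, adjusted p = 0.417).

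Calls among cell cycle genes went in both directions, and most of these genes did not pass. Over all genes tested 0.734% were higher and 2.57% lower, the shares to set beside each count in this paragraph. Of 53 tested genes of G2/M and mitosis, Hmgb2, a chromatin protein, fell from 229, 214 and 207 CPM to 129, 137 and 143 CPM (log2 -0.67 ± 0.09, adjusted p = 1.37e-07). The condensin gene Ncapd3 and the spindle motor gene Kif11 fell (log2 -0.99 ± 0.21 and -0.52 ± 0.11). Cdc20, an activator of the anaphase-promoting complex, rose from 309.8, 335 and 316 CPM to 392, 371 and 414 CPM (log2 0.29 ± 0.06, adjusted p = 0.00117), Birc5 rose by 0.22 ± 0.06 and 48 did not pass. Of 33 genes of G1/S, Cdc6 rose, Orc6 fell by 0.38 ± 0.10 and 31 did not pass. Cdc6 and Orc6 each lost the call in 4 of 6 leave-one-out fits. Among genes of RNA and protein processing, Lsm2, Snrpa and Snrpd2 rose by 0.25, 0.33 and 0.38 out of 33 spliceosomal genes, each losing its call in 4 or 5 of 6 leave-one-out fits. Of 28 RNA polymerase subunit genes, Polr2m rose by 0.31 ± 0.07 and Polr3k fell by 0.55 ± 0.11. Psma5 fell among 35 proteasome genes (log2 -0.43 ± 0.09) and Eif4g2 among 40 translation factors (log2 -0.21 ± 0.06), with the call on Eif4g2 lost in 4 of 6 leave-one-out fits, and none of 35 aminoacyl-tRNA synthetase genes and none of 14 snoRNA host genes passed.

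**Figure D4:**
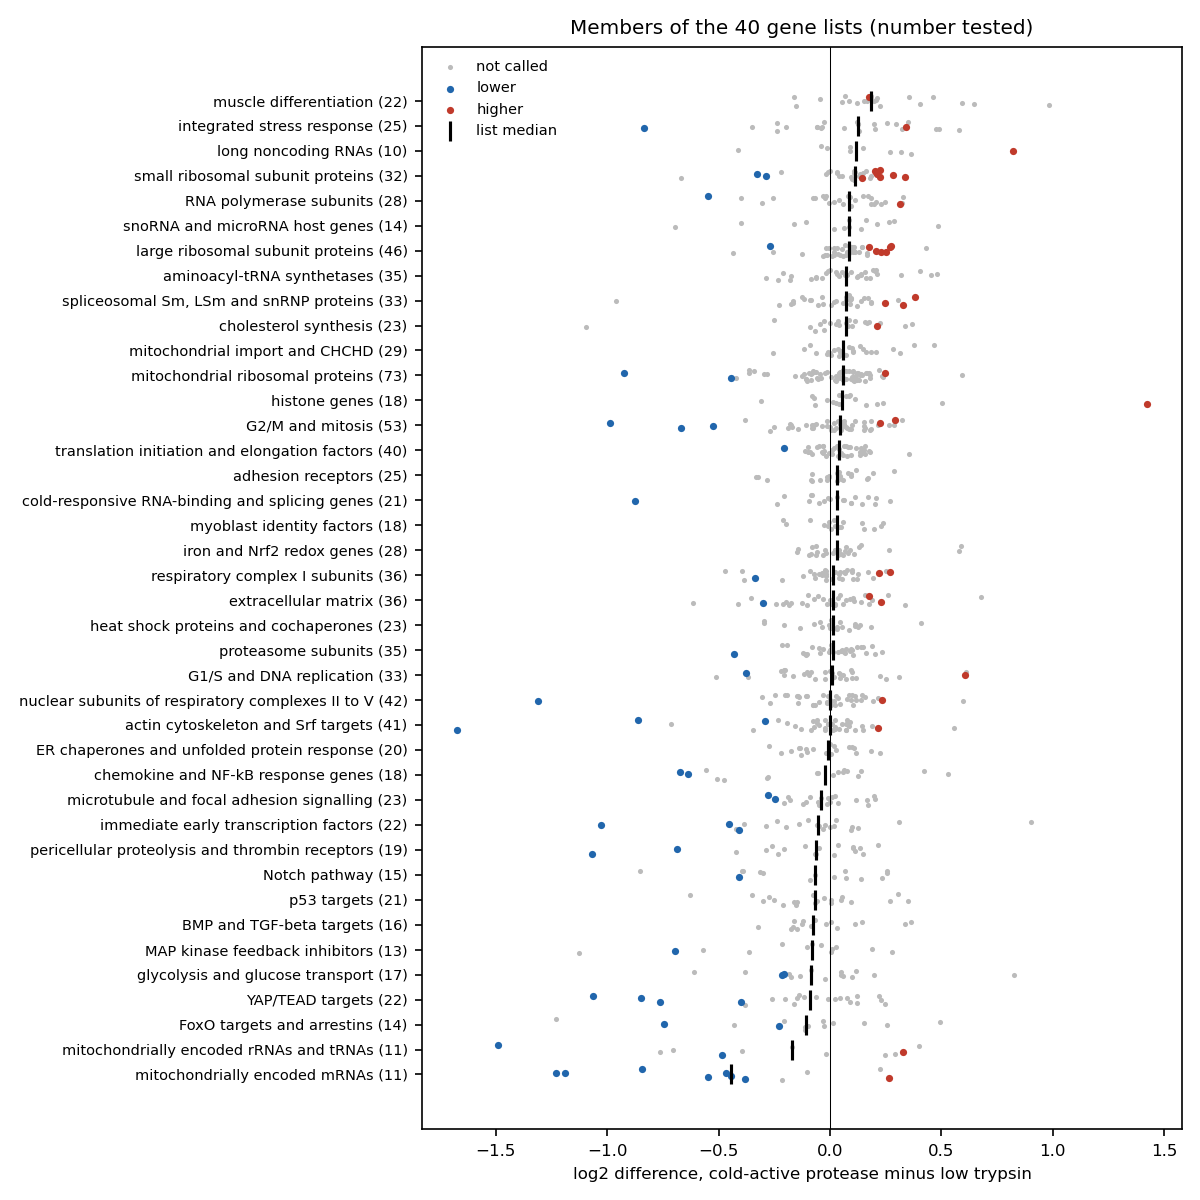
Log2 difference, cold-active protease minus low trypsin, of every tested member of the 40 gene lists, ordered by list median (black bars). Red and blue points passed the test. List medians lie between -0.44 for mitochondrially encoded mRNAs and 0.18 for muscle differentiation, and most lists hold none to 3 called genes in a direction.

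The scraped control libraries give a reference level for both groups. Against control, edgeR called 67 genes for the cold-active protease (0.665% of those tested, 20 higher, 0.199%, and 47 lower, 0.467%) and 523 for low trypsin (5.19%, 332 higher, 3.3%, and 191 lower, 1.9%). Both comparisons use the same control libraries, and each shares a treated group with the direct comparison, so their values are set side by side without a test. The 259 genes lower after the cold-active protease than after low trypsin had a median log2 difference from control of -0.03 in the cold-active protease and 0.73 in the low trypsin group. The 74 higher genes had medians of 0.08 and -0.21. Ccn1, for example, was -0.03 ± 0.07 from control in the cold-active protease and 1.03 ± 0.06 in the low trypsin group, and Sdhd was -0.09 ± 0.12 and 1.22 ± 0.11. Neat1 differed the other way, with 0.76 ± 0.15 from control in the cold-active protease and -0.06 ± 0.17 in low trypsin. Gm13340 was above control in both groups, by 5.52 ± 0.16 and 1.40 ± 0.26.

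The groups left in trypsin for 30 s, 3 min and 30 min were on neither side of the direct comparison. All 18 libraries entered its fit, however, so these groups shared in the estimate of spread and in the expression filter. A gene could enter the test by being high in trypsin groups, and the counts below depend in part on that filter. How many genes entered this way was not counted. In cells treated for 30 s, 149 of the 259 lower genes were called higher than control, against 3.24% of all genes tested, and 2 were called lower. After 3 min 45 of the 259 were called higher, against 1.01% of all genes, and after 30 min 40, against 2.07%. Called lower at these times were 3 and 7 of the 259, against 2.95% and 2.61% of all genes. Their median log2 differences from control were 0.58, 0.21 and 0.17 at 30 s, 3 min and 30 min, beside 0.00, 0.01 and 0.00 over all genes tested. Of the 74 genes higher in the cold-active protease, 25 were called lower than control at 30 s, 25 at 3 min and 19 at 30 min, against 3.7%, 2.95% and 2.61% of all genes. Others went the opposite way: 1, 5 and 6 of the 74 were called higher than control at these times, against 3.24%, 1.01% and 2.07% of all genes. The medians of the 74 were -0.14, -0.09 and -0.05. These comparisons share their control libraries with each other.

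**Figure D5:**
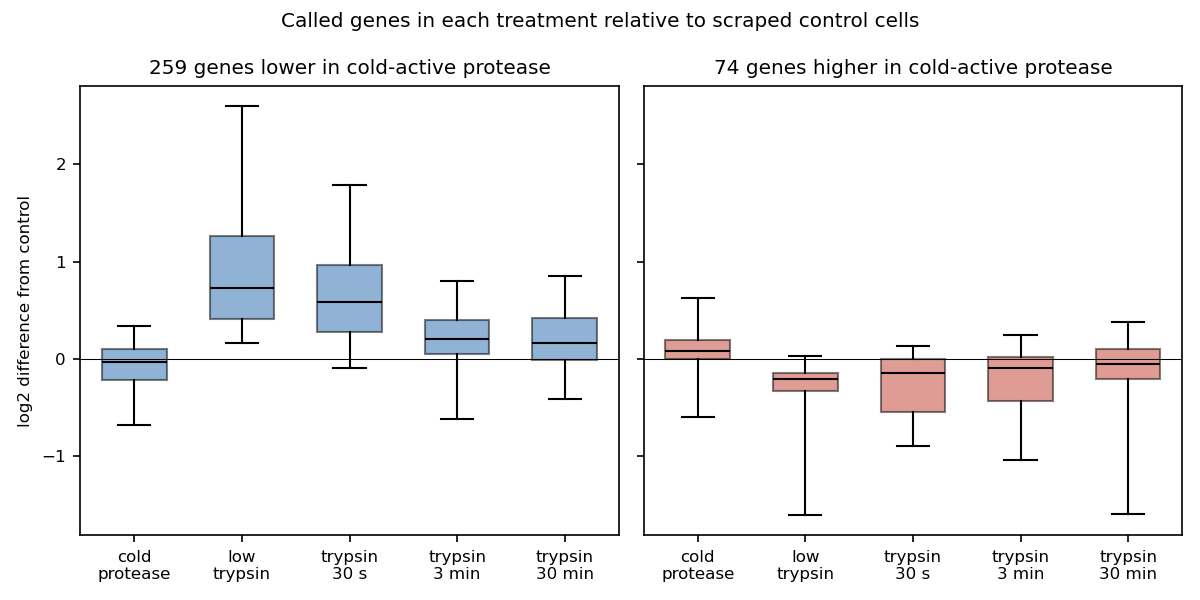
Log2 difference from scraped control cells in each of the 5 treatments for the 259 genes lower (left) and the 74 genes higher (right) in the cold-active protease than in low trypsin. Lines are medians, boxes the quartiles and whiskers the 5th and 95th percentiles. The low trypsin and cold-active protease libraries chose the genes, so those boxes are a description, and the 30 s, 3 min and 30 min boxes come from other treated libraries. Those other libraries also entered the fit and the expression filter.

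Gene length gives a further value beside these results. The median difference was 0.07 for the 207 tested coding genes with a principal mRNA of 601 to 800 nt, -0.32 for the 10 of at most 400 nt and 0.00 for the 1984 longer than 5000 nt. Called higher were 7.41% of the 81 genes of 401 to 600 nt, 4.35% of the 207 and 0.252% of the 1984. Called lower were 3.70%, 4.83% and 0.958% of these. Of 66 coding genes called higher, 15 had a principal mRNA of at most 800 nt, and of 192 called lower with a known principal mRNA, 16 did, against 298 of 9711 tested. The 3 genes that fell among the 10 of at most 400 nt were Rps27rt, Rps27 and mt-Nd3, and whether length itself played a part was not tested. Genes with a principal mRNA of at most 800 nt took 8.94% ± 0.06 of counts in cold-active protease and 8.62% ± 0.39 in low trypsin libraries (SD, n = 3, exact two-sided permutation p = 0.4). With a trend on principal mRNA length removed, edgeR called 300 genes in place of 333.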

How the data were processed

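Per the labels' protocols, RNA of C2C12 cells was column-purified and sequenced with 15 cycles for the first read and 45 for the second. Per the submitters' processing notes, the build was GRCm38 and the tools included HISAT2 2.1.0, featureCounts 2.0.1, UMI-tools 1.0.1, Trim Galore 0.6.6, cutadapt 2.6 and DESeq2 1.28.1. Their settings, including strand and multiply mapping reads, are not given in the sources used here; near-identical copies may share reads. The authors deposited whole-number counts for 25957 genes, used here as deposited; their normalized tables were not used. Annotation was GENCODE M21 (GRCm38, 1-based), which matched all 10075 tested genes by ID. Depth was 1775288 to 2480690 counts in the 6 libraries compared, and counting error is widest for genes of a few CPM.

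All 18 libraries entered 1 fit in edgeR 4.0.16 (R 4.3.3) with filterByExpr by group, TMM scaling, no covariate and a two-sided quasi-likelihood F test. Calls required an adjusted p below 0.05 (Benjamini-Hochberg over all tested genes), and an adjusted p is from this fit unless its sentence names another. Values are log2 differences with SE and TMM-scaled CPM. Alternatives were other scalings, DESeq2 1.42.0, other filters, the 6 libraries alone, a replicate block, leaving out each library, and length corrections. Replicate numbers did not pair the samples: deviations of same-numbered libraries correlated at -0.023, 0.018 and -0.008 between the 2 groups.

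The members and the 40 gene lists were chosen with earlier results of these data known. The lists cover signalling and early genes, stress, cytoskeleton, matrix, muscle, mitochondria, ribosome, RNA processing, metabolism and cell cycle. The naming rule took the 12 largest differences in each direction from the calls whose groups did not overlap and whose higher group averaged 10 CPM or more, without pseudogenes and predicted genes. It added up to 4 called members of each list and some genes given whatever their result. Other members are named as examples, chosen after their values were seen. Best matching genes of pseudogenes came from blastn 2.17.0 (at least 90% identity over 100 bases); near-identical copies match at least 95%.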

Additional observations from a re-analysis of the deposited data

How the results depend on the processing

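The number of genes called between cold-active protease and low trypsin was 333 (74 higher, 259 lower), and DESeq2 called 217 (39 higher, 178 lower), 214 of them also called by edgeR, and 23 of the 86 named called genes lost their call with DESeq2. Leaving out 1 library gave 204 to 282 calls, with 34 to 62 higher and 170 to 220 lower, lowest without cold-active protease replicate 2. Against control, DESeq2 called 41 genes for the cold-active protease, 9 of them higher, and leaving out 1 library gave 35 to 53, with 9 to 19 higher and 26 to 34 lower. For low trypsin against control the lower genes numbered 117 to 166 when 1 library was left out. The fit with the replicate number as a block called 317 genes (75 higher, 242 lower), and only Ppp1r15a and Mrpl55 among the 86 named called genes lost their call (both adjusted p = 0.053). Cold-active protease replicate 2 alone correlated best with the low trypsin library of its own number. That value, 0.018, lay below the 0.031 of cold-active protease replicate 1 with low trypsin replicate 3, so it shows no pairing. Of the 86, 49 kept their call in every leave-one-out fit. Neither Hspa8 nor Cirbp was called, and their values changed sign. Hspa8 had -0.0016 without cold-active protease replicate 1 and -0.0061 without low trypsin replicate 1, in a range of -0.0061 to 0.13 over the leave-one-out fits. Cirbp had -0.043 and -0.0046 without replicate 2 of the cold-active protease and of low trypsin, in a range of -0.043 to 0.35, and the cause was not tested. Other scalings, filters, fits of the 6 libraries alone and length corrections gave 281 to 337 calls. Of the named genes 15 overlap another tested gene, none of which was called, and differences in genes of a few CPM are limited by depth.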

Other observations

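Several called genes outside the naming rule and the lists were singled out after their values were seen, so they carry no test beyond the fit over all genes. Anxa1, which encodes annexin A1, was at 2699, 2678 and 2884 CPM in low trypsin and 1894, 1848 and 1958 CPM in cold-active protease libraries (log2 -0.54 ± 0.04, edgeR adjusted p = 9.92e-14). Areg, which encodes the EGF receptor ligand amphiregulin, was at 26.9, 16.2 and 28.5 CPM in low trypsin and 13.5, 12.8 and 13.2 CPM in cold-active protease (log2 -0.87 ± 0.24, adjusted p = 0.0270). Epha2, an ephrin receptor, Has2, a hyaluronan synthase, and Tob1, an antiproliferative factor, fell (log2 -0.44 ± 0.12, -0.46 ± 0.13 and -0.66 ± 0.15). Among the rises, Trp53, which encodes p53, differed by 0.31 ± 0.07 (adjusted p = 0.00442) while none of its 21 listed targets passed, and Ahnak, which encodes a very large scaffold protein, differed by 0.32 ± 0.06 (adjusted p = 5.72e-04).

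The largest fall of any tested gene was that of Gm3764, a noncoding gene of low count, at 7.47, 6.50 and 7.48 CPM in low trypsin and 0, 0 and 0 CPM in cold-active protease libraries (log2 -6.78 ± 0.98, which depends on the prior count where libraries are at 0). Its control libraries were at 0, 0 and 0 CPM. Gm3764 could therefore enter the tested set only through groups where it was high. Its rank follows in part from that filter.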
